A study of Mus musculus with 12 samples.

Results

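Among well-counted noncoding RNAs of fibroblast clones from the mouse digit tip, those annotated as long noncoding RNAs (lncRNAs) were more often higher than lower once the clones had been driven to form cartilage. A lncRNA is a long transcript with no protein product of its own. Some lncRNAs work inside the nucleus, as Xist does when it coats the inactive X chromosome and as Neat1 does when it builds paraspeckles. Others are made next to, or on the opposite strand of, a developmental gene such as a Hox gene. A further kind, the host genes of small nucleolar RNAs (snoRNAs), carries these guides of ribosomal RNA modification in its introns, and its spliced exons leave the nucleus, meet ribosomes and are broken down quickly.

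The 339 transcripts described here, which belong to 336 gene symbols, were every curated noncoding entry (RefSeq class NR) of the deposited expression table with a mean normalized count of at least 10 over 12 libraries and no coding entry (RefSeq class NM) under the same symbol. Genes named Snor, Scarna, Rnu, Mir, Rn7s or Hist, and H19, Meg3, Rmrp and Rpph1, were left out. The table held 106518 transcript entries, of which 5333 reached the same mean and were tested together. A mean under 10 removed 2575 of 2914 noncoding entries that met the rules on names, 1470 of which had no read in any library. The members were chosen by this mean level, so their level is no finding. Just under it lay 4931440P22Rik at 9.91 and Sox2ot at 9.84, and just above it lay 2810029C07Rik at 10.1 and AW011738 at 10.1. RefSeq (mouse assembly GRCm38.p6) matched 332 members and listed 250 as lncRNA, 69 as pseudogenes, most of them transcribed, 11 as noncoding variants of genes it now calls protein coding, such as Btbd19, and 1 each as antisense RNA and miscellaneous RNA. The label noncoding therefore held for most members but not for all. Names were mostly provisional: 152 were RIKEN clone names and 71 were Gm numbers.

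P3D8 and P3E3 are lines that each grew from 1 lacZ-positive fibroblast taken from the terminal phalanx (P3) of adult mouse digits, so each clone stands for 1 founder cell. In the monolayer groups each clone was grown at passage 6 on fibronectin with EGF and PDGF (both at 10 ng/ml), LIF at 0.5 ng/ml and 2% serum, and was collected at 80% confluence. In the cartilage groups (P3D8/BMP9 and P3E3/BMP9) the same clone was kept on uncoated dishes with 2% serum with BMP2 during the first 4 days and BMP9 during the next 14 days, both at 50 ng/ml. Substrate, growth factors, confluence and days in culture differed together with the BMPs, so their parts in any change cannot be told apart. Each of the 4 groups had 3 libraries of polyadenylated RNA, with 7269748 to 8662298 counted reads each, and 1 read was worth 0.593 to 0.858 normalized counts. The study describes the cartilage libraries as separate experiments, and for the monolayer libraries this is not stated in the sources used here, so p-values there measure the spread between libraries, which may be technical. Polyadenylated RNA in bulk was read, so fewer cells with a transcript and less of it per cell cannot be told apart.

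Cartilage genes were on in the cartilage groups, and fibroblast genes were too: 10 of 10 tested cartilage markers were higher in both clones, and their summed level went from 724 to 887 normalized counts in P3D8 monolayer up to 13407 to 19963 in P3D8 cartilage, and from 844 to 922 up to 36200.2 to 69306 in P3E3. Of 7 tested fibroblast markers, 6 were higher in both clones, among them Col1a1, Col3a1 and Lum, while Pdgfra fell in P3E3 and was not called in P3D8. Their summed level went from 86245 to 87416 up to 1003816 to 1083104 in P3D8 and from 46926 to 50026 up to 520336 to 602459 in P3E3, above the cartilage sum in every group. The lists held 8 fibroblast and 16 cartilage genes, and the tested Col2a1 and Acan entries had means of 30.5 and 14.6. The 2 sums therefore do not weigh cartilage against fibroblast transcripts as a whole. Of the 4 glia, 4 muscle and 4 adipocyte markers, S100b (which chondrocytes also express), Des and Fabp4 were tested, and each was higher in both clones, while 2 of each list were at 0 in every library. The sums of these lists in cartilage were 1267 to 1302 and 4023 to 4930 for glia, 70.9 to 89.4 and 62.0 to 75.8 for muscle, and 137 to 189 and 59.0 to 62.8 for adipocytes, in P3D8 and P3E3. Their part in the results below was not tested. A 0 need not mean absence, since 1 of 8 fibroblast markers and 6 of 11 listed genes of paraspeckle proteins were also at 0 in every library. The 4 endothelial markers were at 0 in every library, while 3 of 5 blood markers were at 0. The tested one, Lyz2, rose by 4.67 in P3D8 and 6.34 in P3E3 on the log2 scale, and the blood list's sum went from 1.96 to 6.43 up to 23.9 to 34.6 in P3D8 and from 2.44 to 3.62 up to 68.9 to 106 in P3E3. For 4 libraries, 1 per group, the label's cell line entry and its title named different clones, and the groups here followed the titles. Grouped by that entry, 0 members passed the limma test between the clones in either state, with 6 in monolayer and 4 in cartilage at an unadjusted p under 0.05, whereas by title 149 passed in monolayer and 141 in cartilage. Other tools were not run on that grouping. The third P3E3 cartilage library stood apart: 18 members were at least 1 log2 unit below the mean of the other 2 there, which was 5.31% of members against 1.97% of all tested transcripts. Where a call or a value described below changes by over 1.5 times without it, the value without it is given as well.

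Start sequences of 9 members are shown because transcripts of this kind, made to be translated and destroyed, often begin with a cytosine and a run of pyrimidines, the terminal oligopyrimidine (TOP) tract that growth signals act on. Each line gives 50 bases, 5′ to 3′, from RefSeq on GRCm38.p6, 20 of them before the annotated start, with the first 5 transcribed bases in capitals. Gas5 has 2 annotated starts, and the second, 565 bases after the first, is the one shown because it holds the tract.
Gas5, chr1:161035146-161035195, plus strand: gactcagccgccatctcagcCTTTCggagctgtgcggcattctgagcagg
Snhg1, chr19:8723467-8723516, plus strand: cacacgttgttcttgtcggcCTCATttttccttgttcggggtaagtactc
Snhg5, chr9:88522868-88522917, minus strand: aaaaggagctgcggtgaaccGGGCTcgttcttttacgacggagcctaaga
Snhg7, chr2:26640215-26640264, minus strand: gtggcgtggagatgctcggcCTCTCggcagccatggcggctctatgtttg
Snhg8, chr3:123508307-123508356, minus strand: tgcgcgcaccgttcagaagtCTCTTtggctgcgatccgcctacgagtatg
Snhg12, chr4:132308658-132308707, plus strand: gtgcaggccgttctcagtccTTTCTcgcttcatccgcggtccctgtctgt
Snhg15, chr11:6528731-6528780, minus strand: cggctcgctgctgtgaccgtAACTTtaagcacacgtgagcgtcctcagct
Snhg18, chr15:32244633-32244682, minus strand: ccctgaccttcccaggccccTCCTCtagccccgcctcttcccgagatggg
2410006H16Rik, chr11:62602857-62602906, plus strand: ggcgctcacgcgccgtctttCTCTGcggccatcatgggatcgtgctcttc

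A C followed by 4 further C or T stood at the annotated start of Snhg7 and Snhg8 and at the second of the 2 starts of Gas5, but not at its first, which made 3 of 11 listed host genes with a window. The same pattern was found at 15 of 219 members with a window (6.85%) and at 813 of 27025 genes of the RefSeq promoter table (3.01%), where any annotated start counted. With the outermost start of each gene alone it was found at 2 of the 11 hosts, 13 members (5.94%) and 671 genes of the table (2.48%). Snhg12 and Snhg18 began with 5 pyrimidines but not with C, and in Snhg1, Snhg5, Snhg15 and 2410006H16Rik a purine stood within the first 5 bases. An annotated start can lie some bases from the one used in these cells, and a missing match says only that these letters are not there.

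Between cartilage and monolayer, members rose more often than they fell in both clones. In P3D8, 185 of 339 members were higher in cartilage (54.6%) and 73 were lower (21.5%), where the test called 37.5% of all tested transcripts higher and 38.8% lower. In P3E3, 186 members were higher (54.9%) and 80 were lower (23.6%), against 41.4% and 38.3% of all tested transcripts. A call means a Benjamini-Hochberg adjusted p under 0.05 in limma, fitted to log2(normalized count + 1) of all 5333 transcripts, and every log2 fold change below is on that scale with its standard error. The median member changed by 0.79 in P3D8 and 0.70 in P3E3, where the median of all tested transcripts changed by -0.04 and 0.06. Among coding (NM) entries, 34.7% rose and 42.6% fell in P3D8, and 40.1% rose and 41.1% fell in P3E3. Changes of at least 1.5 on the log2 scale were called higher for 108 members in P3D8 (31.9%) and 111 in P3E3 (32.7%), against 18.9% and 21.7% of all tested transcripts, and lower for 33 (9.73%) and 29 (8.55%), against 10.4% and 12.7%.

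The rise was seen among lncRNAs and not among pseudogenes, although the difference between these classes was not tested. Of 250 lncRNAs, 153 were higher (61.2%) and 46 lower (18.4%) in P3D8, with a median of 1.04. In P3E3, 152 were higher (60.8%) and 51 lower (20.4%), with a median of 1.02. Of all tested transcripts 37.5% were higher and 38.8% lower in P3D8, and 41.4% and 38.3% in P3E3. With the library total as the scale 134 lncRNAs were higher and 61 lower in P3D8, and 114 and 72 in P3E3. All tested transcripts then split into 28.8% higher and 51.0% lower in P3D8, and 29.6% and 54.6% in P3E3. Of 69 pseudogenes, 22 were higher and 24 lower in P3D8, and 24 were higher and 24 lower in P3E3, with medians of -0.03 and 0.06, which became 18 and 34 and 13 and 40 with the library total. Overlap with a coding gene moved these shares little: 70 of 126 overlapping members and 110 of 205 others were higher in P3D8, and 71 and 110 were higher in P3E3. Low members rose most often: 62.2% in P3D8 and 67.3% in P3E3 for means from 10 up to 20, against 40.7% and 39.0% of coding entries in the same range, and 43.5% in both clones for means of 100 or more, against 32.8% and 40.0%. Falls made up 6.12% and 14.3% of the low members, against 22.5% and 29.4% of coding entries. At means of 100 or more, 37.6% and 32.9% of members fell, against 49.2% and 44.2% of coding entries. Rises and falls were thus closer in number there, and the members' medians were 0.08 and 0.15.

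Part of the count follows from the rule, since a transcript near 0 in monolayer could be a member only through its cartilage level. Such members, with a group mean of at least 10 in cartilage alone, numbered 86 in P3D8 and 85 in P3E3, of which 81 and 84 were higher. They were not counted by class, so their part in the contrast of lncRNAs and pseudogenes was not tested. Of members with both group means at or over 10, 101 of 236 rose and 62 fell in P3D8, and 95 of 218 rose and 57 fell in P3E3. Those shares were 42.8% and 26.3% in P3D8 against 31.4% and 42.2% of all tested transcripts with both means at that level, and 43.6% and 26.1% in P3E3 against 35.5% and 41.5%. Scaling by the library total in place of the deposited size factors moved the median of all tested transcripts to -0.41 in P3D8 and -0.54 in P3E3. Members were then higher in 161 cases and lower in 101 in P3D8, and higher in 134 and lower in 121 in P3E3, while all tested transcripts split into 28.8% higher and 51.0% lower in P3D8 and 29.6% and 54.6% in P3E3. The members' median stood 0.83 and 0.66 above that of all tested transcripts with the library total, and 0.83 and 0.64 above it with the deposited factors.

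**Figure D1:**
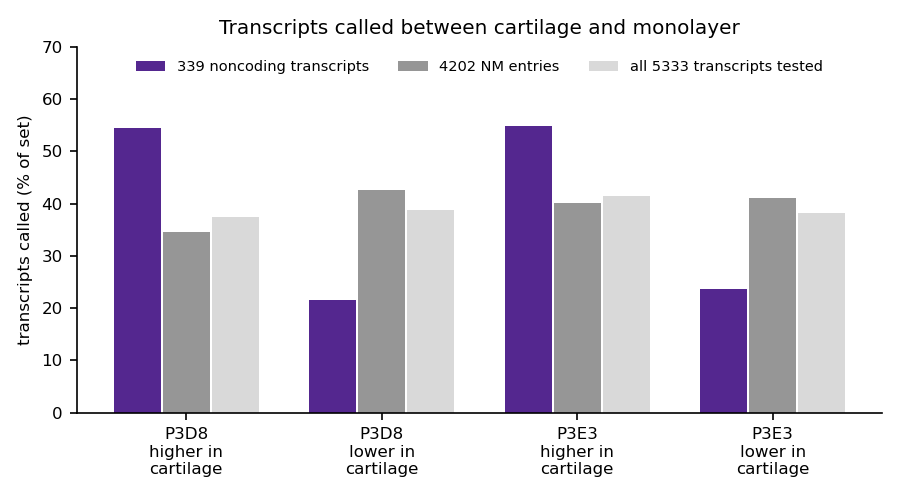
Bars give the percentage of transcripts called higher or lower in cartilage than in monolayer (limma, adjusted p under 0.05) for the 339 members, for coding NM entries and for all 5333 tested transcripts, in each clone. The members' bars for higher calls reach 54.6% in P3D8 and 54.9% in P3E3, above the 37.5% and 41.4% of all tested transcripts.

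Many hosts of snoRNAs changed differently in the 2 clones. Of 24 listed host genes, 13 had a member. Zfas1, at a mean of 1192, had none because its entry is not of class NR, so the counts and sums here leave it out. Among these 13 hosts, 3 were higher and 8 lower in P3D8 cartilage than in P3D8 monolayer, and 7 were higher and 6 lower in P3E3. The difference between these changes passed the test for 7 of the 13, each time with the lower change in P3D8, where the test called 18.7% of all tested transcripts with the higher and 27.8% with the lower change in P3D8. The summed level of the list was 6090.3, 6599 and 7497 in P3D8 monolayer (lowest, median, highest) and 4598, 4837 and 5693 in P3D8 cartilage, so the groups did not overlap. In P3E3 it was 8279.8, 8293 and 9091 in monolayer and 8716, 8947 and 8967 in cartilage, and these overlapped. With the library total as the scale the list gave 3 higher and 9 lower in P3D8, 4 higher and 6 lower in P3E3, and 5 of 13 for the difference.

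Gas5, a host of many box C/D snoRNAs and the most abundant host in the table, spans chr1:161034601-161038539 on the plus strand, counted from the first of its 2 annotated starts, and overlaps the coding gene Zbtb37. It was counted at 2484, 2674 and 3255 in the 3 P3D8 monolayer libraries and at 1728, 1655 and 2105 in P3D8 cartilage. In P3E3 it was at 3555, 3184 and 3324 in monolayer and at 4617, 4378 and 4445 in cartilage. All cartilage libraries lay below all monolayer libraries in P3D8 and above them in P3E3. The log2 change was -0.61 ± 0.10 (adjusted p = 9.14e-05) in P3D8 and 0.42 ± 0.10 (adjusted p = 0.00203) in P3E3, and the changes differed by -1.03 ± 0.15 (adjusted p = 6.79e-05). With the library total the P3E3 change turned to -0.19 and was no longer called.

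Snhg8 followed the same pattern, at 299, 323 and 320.4 in P3D8 monolayer and 142, 140.1 and 179 in P3D8 cartilage, and at 281, 295 and 208 and 443, 476 and 466 in P3E3. It fell by 1.03 on the log2 scale in P3D8 (adjusted p = 5.66e-06) and rose by 0.83 in P3E3 (adjusted p = 4.30e-05), a rise that library-total scaling reduced to 0.23 and left uncalled. Snhg4, on chromosome 18, was lowest in P3E3 monolayer, at 24.7, 27.9 and 17.7, and highest in P3E3 cartilage, at 153, 177 and 176. In P3D8 it was at 111, 120.2 and 78.9 in monolayer and 61.2, 61.8 and 69.6 in cartilage, so that the clone with more Snhg4 in monolayer had less of it in cartilage. Its change was -0.66 ± 0.19 (adjusted p = 0.00687) in P3D8 and 2.82 ± 0.19 (adjusted p = 5.87e-09) in P3E3, and the difference of -3.48 ± 0.28 was the largest among the hosts (adjusted p = 4.41e-07).

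Snhg1 (chr19:8723487-8726326, plus strand), another host of box C/D snoRNAs, fell in both clones. It was at 1182, 1291 and 1508 in P3D8 monolayer and 303, 247 and 349 in P3D8 cartilage, and at 2342, 2065 and 2281 and 521, 503 and 439 in P3E3. The changes were -2.15 ± 0.12 (adjusted p = 9.58e-10) and -2.19 ± 0.12 (adjusted p = 5.90e-10), and they differed by 0.04 ± 0.17, which did not pass the test. Snhg15 behaved in the same way, with -1.95 in P3D8 and -2.03 in P3E3, both called. Snhg12 fell in both clones but further in P3D8, from 766 to 963 down to 199 to 260.3, than in P3E3, from 1069.5 to 1426 down to 701 to 851, and the changes differed by -1.19 ± 0.19 (adjusted p = 1.42e-04). Snhg5 and Snhg6 also fell in both clones, by 1.27 and 1.18 in P3D8 and by 0.80 and 0.57 in P3E3. Snhg7 was at 37.3 to 59.1 in P3D8 monolayer and 29.1 to 31.3 in P3D8 cartilage, at 63.3 to 103 in P3E3 monolayer and 24.9 to 54.4 in P3E3 cartilage, and its P3E3 fall of 0.87 lost its call without the third P3E3 cartilage library (-0.51, adjusted p = 0.0637) or without the second P3E3 monolayer library (-0.66, adjusted p = 0.065).

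A few hosts rose in both clones. Snhg18 (chr15:32240568-32244662, minus strand, next to Sema5a) was at 244, 254 and 194 in P3D8 monolayer and 1784, 1718 and 1991 in cartilage, and at 111, 87.7 and 121 and 1515, 1651 and 1683 in P3E3. Both rises were called, 2.99 ± 0.12 in P3D8 and 3.92 ± 0.12 in P3E3, and the P3E3 rise was the larger (difference -0.93 ± 0.18, adjusted p = 6.67e-04). Snhg3 rose by 0.96 in P3D8 and 1.63 in P3E3, and Snhg20 by 2.44 and 2.16. Snhg20 was at 52.9, 67.0 and 15.4 in P3E3 cartilage, where the third library was the low one and without which the P3E3 rise was 2.78. Dancr, listed with the hosts for its short spliced form, changed by 0.33 in P3D8, which was not called (adjusted p = 0.546). It was at 17.5, 14.2 and 7.31 in P3E3 monolayer and 39.1, 57.0 and 9.44 in P3E3 cartilage, and these overlapped. Its P3E3 rise of 1.12 ± 0.49 (adjusted p = 0.0483) lost the call in 10 of 12 fits that left out 1 library, with an adjusted p of up to 0.249, and was 1.86 without the third P3E3 cartilage library (adjusted p = 1.53e-04).

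The RIKEN transcript 2410006H16Rik (chr11:62602877-62604806, plus strand) was among the 12 most abundant members and moved with Snhg1 in direction. It was not in the host list, so the host counts and sums above leave it out. It was at 2495, 2738 and 3109.6 in P3D8 monolayer and 418, 435 and 695 in cartilage, and at 4982, 4513 and 3769 and 1349.7, 1278 and 1064 in P3E3. The falls were -2.46 ± 0.17 (adjusted p = 7.16e-09) and -1.84 ± 0.17 (adjusted p = 1.43e-07), with no overlap between cartilage and monolayer in either clone. Coding genes that act on host RNAs, and genes whose messages begin with TOP tracts, were read beside them. The tract itself was found at 3 of 11 listed hosts with a window and not at 2410006H16Rik. Of 4 tested genes of snoRNA binding proteins, of 10 listed, 3 fell in each clone, where 38.8% and 38.3% of all tested transcripts fell, and Nop10 rose by 0.27 in P3E3. Among those that fell was Fbl, the methyltransferase of box C/D particles, by 2.14 in P3D8 and 1.84 in P3E3. Of 31 tested cytosolic ribosomal protein genes, whose messages begin with TOP tracts, 28 fell in P3D8, while 14 rose and 5 fell in P3E3. The difference was called for 27 of the 31, always with the lower change in P3D8, and their median change was -0.92 in P3D8 and 0.15 in P3E3, the latter smaller than the shift that library-total scaling gave the median of all tested transcripts. Nonsense-mediated decay is the pathway that destroys such spliced host transcripts. Of 6 tested genes of that pathway, of 15 listed, 4 fell in P3D8 and 5 in P3E3, and Upf3a rose by 0.89 in P3E3.

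**Figure D2:**
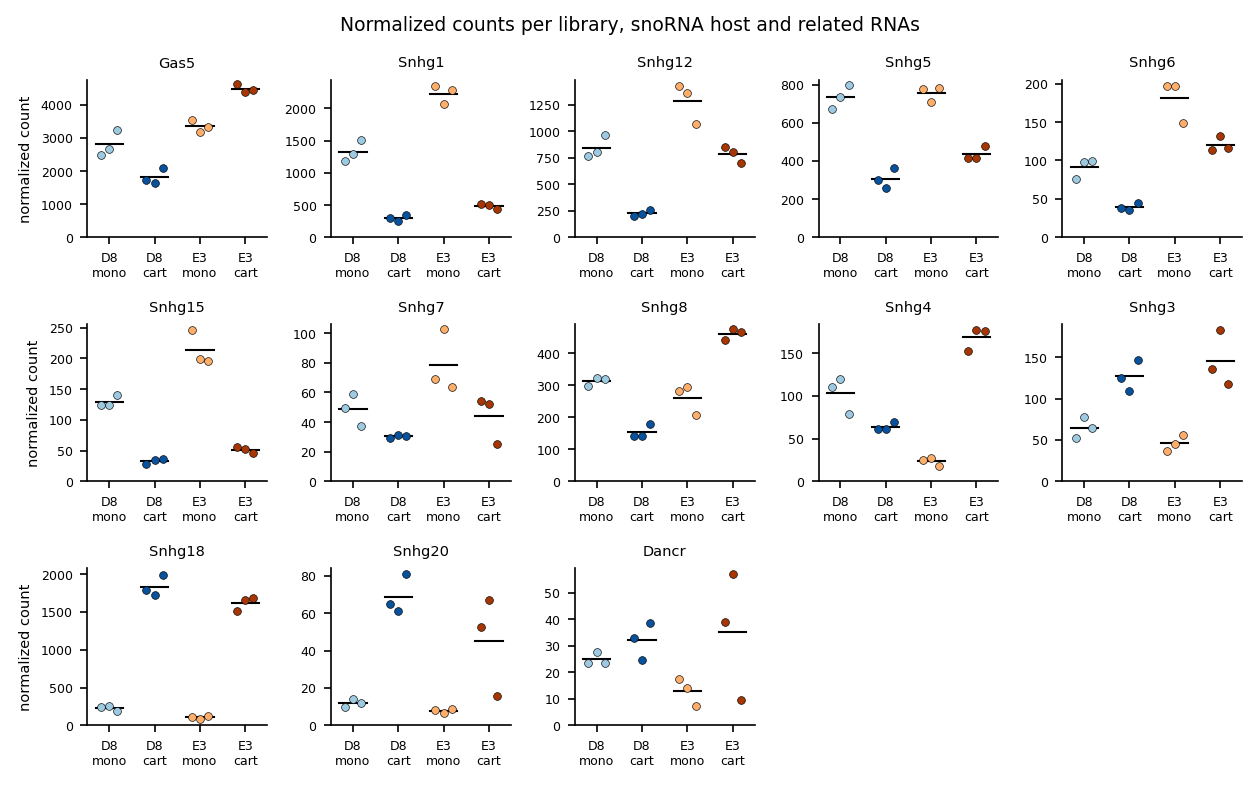
Each panel shows 1 host gene with normalized counts on the vertical axis, the 3 libraries of each group as points and their mean as a bar, from left to right P3D8 monolayer (D8 mono), P3D8 cartilage (D8 cart), P3E3 monolayer (E3 mono) and P3E3 cartilage (E3 cart). Gas5, Snhg8 and Snhg4 are lower in cartilage in P3D8 and higher in P3E3, while Snhg1, Snhg12, Snhg5 and Snhg15 are lower in cartilage in both clones.

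Among long RNAs that act in the nucleus, more were higher than lower in cartilage. The list of 15 genes read for this also held Norad, a cytoplasmic RNA, which was called higher in both clones. Of 14 listed transcripts measured, from 12 genes, 11 were higher and 1 lower in P3D8, and 10 were higher and 2 lower in P3E3. Median changes were 1.20 and 1.07, where 37.5% and 41.4% of all tested transcripts were higher. The summed level of the list, Norad included, was 2499, 2529 and 2575 in P3D8 monolayer and 10091, 10922 and 12086 in P3D8 cartilage. In P3E3 it was 3319, 3879.9 and 4176 in monolayer and 6988, 12372 and 12398 in cartilage, where the lowest value came from the third library. Without that library the list gave 11 higher and 1 lower in P3D8 and 11 higher and 2 lower in P3E3. With the library total as the scale it gave 9 higher and 1 lower in P3D8 and 7 higher and 2 lower in P3E3.

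Malat1 (chr19:5795690-5802672, minus strand), an abundant RNA of nuclear speckles, made up much of that sum together with Xist and Norad (2900097C17Rik in the files). It was at 379, 298 and 401 in P3D8 monolayer and 3334, 4838 and 3970.2 in P3D8 cartilage, and at 633, 797 and 870.4 and 6041, 6562 and 2074 in P3E3. Every cartilage library lay above every monolayer library, and the third P3E3 cartilage library was well under the other 2. The rise was 3.49 ± 0.32 (adjusted p = 1.76e-07) in P3D8 and 2.51 ± 0.32 (adjusted p = 5.06e-06) in P3E3, or 3.05 without the third library. In cartilage the clones differed by -0.12, which was not called (adjusted p = 0.777), and without that library by -0.65, which was (adjusted p = 0.00548). Neat1, the scaffold of paraspeckles, was low throughout, at 5.87 to 8.69 and 17.4 to 20.9 in P3D8 and at 1.19 to 4.22 and 6.87 to 23.7 in P3E3, and rose by 1.26 and 2.02, or by 2.42 in P3E3 without the third cartilage library. Of 3 tested genes of paraspeckle proteins, of 11 listed, 2 fell in P3D8 and 3 in P3E3, where 38.8% and 38.3% of all tested transcripts fell. Nudt21 fell by 1.44 and 1.66. Norad, a cytoplasmic RNA that binds Pumilio proteins, rose by 0.83 in P3D8, from 1076 to 1128 up to 1854 to 2048, and by 1.14 in P3E3, from 1268 to 1398 up to 2705 to 3369.6.

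On the X chromosome, Xist (chrX:103460373-103483233, minus strand, counted here in 1 of 2 entries) differed between the clones. It was at 823, 877 and 748 in P3D8 monolayer and 3458, 3963 and 3606 in P3D8 cartilage, a rise of 2.17 ± 0.25 (adjusted p = 1.54e-06). In P3E3 it was at 1099.6, 1390.3 and 1557 in monolayer and 2399.8, 1931 and 938 in cartilage, where the third library lay under all monolayer libraries, and the change of 0.29 ± 0.25 was not called (adjusted p = 0.29). Without that library the P3E3 rise was 0.69 and was called (adjusted p = 0.000377). The changes differed by 1.88 ± 0.35 (adjusted p = 5.52e-04), and the clones differed in cartilage by 1.17 ± 0.25 (adjusted p = 0.00136). Without that library these values were 1.48 (adjusted p = 2.98e-05) and 0.77 (adjusted p = 4.68e-04). Firre, an X-linked RNA that anchors chromosomal contacts in the nucleus, rose from 26.7 to 40.5 up to 853 to 1023 in P3D8 and from 13.3 to 21.3 up to 185 to 586 in P3E3, by 4.73 and 4.38, and by 4.90 in P3E3 without the third cartilage library. Its cartilage level was higher in P3D8 than in P3E3 by 1.27, and by 0.75 without that library, and both were called. Jpx and Ftx, genes of the X inactivation centre that favour Xist, rose as well: Jpx by 1.10 and 0.82, and the better counted Ftx entry by 1.59 and 0.99. Of all 12 members on the X chromosome, 8 were higher and 1 lower in P3D8, and 6 were higher and 2 lower in P3E3, where 54.6% and 54.9% of all members and 37.5% and 41.4% of all tested transcripts were higher.

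Of 9 listed imprinted RNAs, which are made from 1 parental copy, 3 were measured and all 3 rose in both clones, where 54.6% and 54.9% of all members and 37.5% and 41.4% of all tested transcripts were higher. Peg13 was at 198, 190.3 and 196 in P3D8 monolayer and 785, 739 and 691 in cartilage, and at 214, 228 and 291 and 673, 653 and 730.4 in P3E3. On the log2 scale Peg13 rose by 1.91 ± 0.11 in P3D8 and by 1.496 in P3E3 (adjusted p = 9.59e-09). Airn, which silences Igf2r from the opposite strand, went from 3.91 to 6.21 up to 28.0 to 31.6 in P3D8 and from 5.48 to 7.11 up to 18.0 to 27.3 in P3E3, rises of 2.28 and 1.74, while Igf2r fell by 1.22 and 1.05. Kcnq1ot1, which silences its domain on chromosome 7, was at 109.5, 176 and 51.5 in P3E3 cartilage against 8.89 to 17.7 in monolayer, and at 19.4 to 32.1 against 4.97 to 9.13 in P3D8. Its rises were 1.78 ± 0.39 (adjusted p = 8.46e-04) and 2.91 ± 0.39 (adjusted p = 8.57e-06), and their difference of -1.13 ± 0.56 was not called with all libraries but was without the third P3E3 cartilage library (-1.60, adjusted p = 0.0122).

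Of the remaining listed RNAs, Pvt1, made beside Myc, fell by 1.55 in P3D8 and 1.66 in P3E3. Trp53cor1, which p53 induces in mouse cells, was at 7.83 to 12.9 and 7.42 to 22.2 in P3D8 (0.13 ± 0.34, not called). In P3E3 it rose from 9.14 to 13.6 up to 30.9 to 36.0, by 1.505 on the log2 scale (adjusted p = 9.45e-04). The 2 Tug1 entries differed: the better counted one changed by 0.55 in P3D8 and 0.29 in P3E3, the second by -0.39 and -1.95, and of these 4 values only the first and the last were called. The call of the first was lost without 1 of 2 libraries, at an adjusted p of up to 0.0719. How reads shared between entries of 1 gene were assigned is not given in the sources used here. The 31 members whose symbol has several entries, among them those of Tug1, Ftx, Xist and Airn, are therefore uncertain in level.

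**Figure D3:**
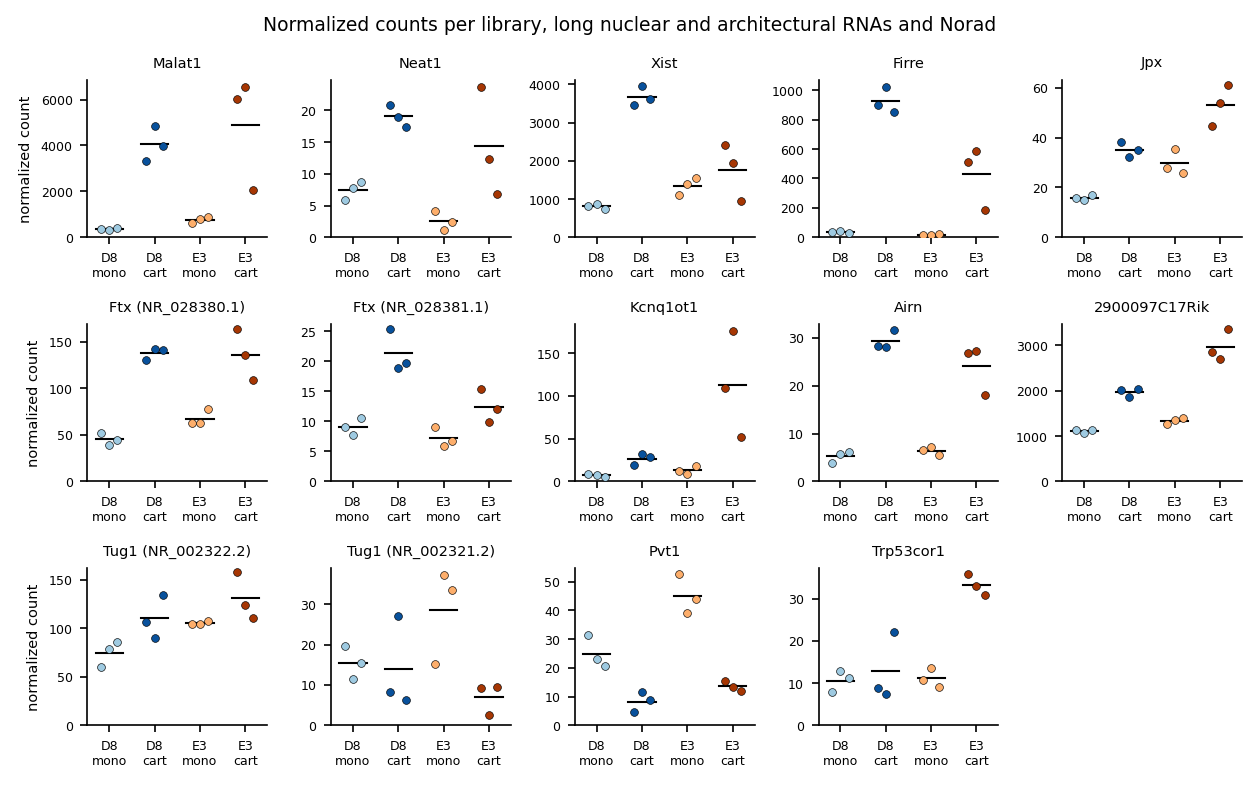
Panels show normalized counts of long nuclear RNAs and Norad (2900097C17Rik), 1 transcript a panel, with the 3 libraries of each group as points and their mean as a bar, in the order P3D8 monolayer, P3D8 cartilage, P3E3 monolayer, P3E3 cartilage. Malat1, Firre and Airn lie higher in all cartilage than in all monolayer libraries, and the third P3E3 cartilage library is low for Malat1 (2074) and Xist (938).

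Noncoding transcripts of limb and Hox loci rose in both clones, 3 of 3 measured of 11 listed, a count too small to set apart from the 54.6% and 54.9% of all members, and the 37.5% and 41.4% of all tested transcripts, that were higher. Hoxa11os (chr6:52245243-52249769, plus strand), antisense to the limb patterning gene Hoxa11, was at 521, 575 and 532 in P3D8 monolayer and 1431, 1457 and 1320.5 in P3D8 cartilage, and at 668, 626 and 656 and 1593, 1747 and 1572 in P3E3. It rose by 1.37 ± 0.07 (adjusted p = 4.47e-10) and 1.33 ± 0.07 (adjusted p = 4.55e-10), and Hoxa11 itself by 1.77 and 1.41. Dnm3os (chr1:162217623-162225550, plus strand), the precursor of microRNAs needed for skeletal growth in the mouse, was at 77.6, 59.1 and 71.4 in P3D8 monolayer and 706, 869 and 541 in cartilage, and at 12.7, 22.5 and 26.2 and 273, 241 and 156 in P3E3. Both rises were steep, 3.31 ± 0.26 and 3.41 ± 0.26, and P3D8 held more Dnm3os in both states, by 1.76 ± 0.26 (adjusted p = 8.00e-05) in monolayer and 1.66 ± 0.26 (adjusted p = 1.43e-04) in cartilage. The third, Hotairm1, rose by 0.59 in P3D8 and 0.74 in P3E3. Its call was lost in both clones with library-total scaling, and in P3D8 also without the third P3D8 cartilage library. Hottip, at a mean of 5.38, and Hotair, at 0, were under the level for a member.

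The largest rises were in transcripts that had no read at all in monolayer. In all 6 monolayer libraries 10 members were at 0, and each was called higher in cartilage of both clones; these passed the mean through cartilage alone. Their folds are lower bounds, set against 3 reads per library, which is 1.92 normalized counts in P3D8 monolayer and 1.81 in P3E3 monolayer. Gm13293 was at 210.3, 235 and 173 in P3D8 cartilage, at least 108-fold higher, and at 267, 242 and 401 in P3E3 cartilage, at least 168-fold higher. Gm26633 (chr7:79018053-79053323, minus strand) overlaps Acan, the gene of the cartilage proteoglycan aggrecan, and was at 56.7, 60.2 and 64.9 in P3D8 and 371, 368 and 507 in P3E3 cartilage, at least 31.6-fold and 230.2-fold higher. Its level differed between the clones in cartilage by -2.74 ± 0.22 (adjusted p = 2.70e-07).

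The RNA listed as 2810468N07Rik (Cerox1 in RefSeq), which in mouse cells raises transcripts of respiratory complex I, starts 125 bases from Sox8, a factor of the cartilage programme, on the opposite strand. It was at 17.2, 20.6 and 15.8 in P3D8 and 152, 124 and 134 in P3E3 cartilage, at least 9.32-fold and 75.8-fold higher than in monolayer. The clones did not overlap in cartilage and differed by -2.87 ± 0.23 (adjusted p = 3.52e-07), while Sox8 differed by -3.26 (adjusted p = 5.42e-07). AW112010 was at 28.3, 28.8 and 45.9 in P3D8 and 159, 137 and 120.2 in P3E3 cartilage, at least 17.9-fold and 76.9-fold higher. A830019L24Rik was the reverse, at 106 to 159.8 in P3D8 and 19.9 to 37.8 in P3E3, at least 65.9-fold and 17.5-fold higher. 2810032G03Rik, 38 bases from Klhl29, was at least 48.0-fold and 27.7-fold higher, Gm19522, which overlaps Zbtb20, at least 21.9-fold and 16.8-fold.

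Among members with reads in monolayer, 4933431E20Rik, which overlaps the glutathione transferase gene Gstm5 on the opposite strand, had the largest rise of the P3E3 comparison, followed by Gm5886. It was at 29.4, 27.6 and 17.4 in P3D8 monolayer and 486, 473 and 449 in cartilage, and at 1.81, 5.34 and 5.48 and 589.8, 604 and 717 in P3E3. The rise was 4.22 ± 0.28 (adjusted p = 4.67e-09) in P3D8 and 7.03 ± 0.28 (adjusted p = 1.28e-11) in P3E3, beside 3.87 and 4.81 for Gstm5. Gm5886 rose by 6.52 and 6.74. Whether the counting step used strand is not given in the sources used here, so reads of overlapping genes on opposite strands cannot be told apart, and this holds for Gm26633, 4933431E20Rik, Airn and Hoxa11os.

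Falls were fewer and some were nearly complete. Ptgs2os2 (chr1:150159043-150164948, minus strand), an antisense transcript near the prostaglandin synthase gene Ptgs2, was at 108, 112 and 80.7 in P3D8 monolayer and 4.47, 1.65 and 6.33 in cartilage, and at 43.5, 33.8 and 44.5 and 2.30, 4.96 and 4.29 in P3E3. It fell by 4.40 in P3D8 and 3.13 in P3E3, and Ptgs2, 50809 bases away, fell by 1.90 and 0.89. Emx2os (chr19:59425104-59458635, minus strand), which starts 55 bases from the homeobox gene Emx2, was at 180.1, 163 and 193 in P3D8 monolayer and 55.9, 53.6 and 57.0 in cartilage, and at 271, 285 and 291 and 26.8, 31.4 and 16.3 in P3E3. The fall was larger in P3E3, -3.50 ± 0.19 against -1.67 ± 0.19, with a difference of 1.84 ± 0.27 (adjusted p = 8.51e-05), and Emx2 fell by 1.99 and 0.93. Gm14005 (Morrbid in RefSeq), which in mouse myeloid cells restrains the death gene Bcl2l11, fell by 3.43 in P3D8 and 4.24 in P3E3. 5430403N17Rik fell by 4.30 and 4.57, Gm4262 by 3.83 and 4.96, Gm6559 by 3.21 and 2.20, and D730005E14Rik by 1.88 and 4.30, the latter 3.79 without the third P3E3 cartilage library.

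Members and their nearest coding genes were set side by side where both were tested, which left 83 pairs. Of 33 pairs that overlap, both partners were called in 14 pairs in P3D8, 10 of them in the same direction, and in 16 pairs in P3E3, 12 in the same direction. Of 33 pairs up to 5000 bases apart, both were called in 22 pairs in P3D8, 12 in the same direction, and in 23 in P3E3, 14 in the same direction. Across overlapping pairs the log2 changes had a Pearson r of 0.64 and a Spearman rho of 0.45 in P3D8 and of 0.74 and 0.47 in P3E3. For pairs up to 5000 bases apart r was 0.67 and rho 0.38 in P3D8, and 0.68 and 0.44 in P3E3. In the 17 pairs farther apart than that, both partners were called in 7 pairs in P3D8, 6 in the same direction, and in 6 pairs in P3E3, 3 in the same direction. Their r was 0.55 and 0.12, and their rho 0.53 and 0.25. These are descriptions over genes that share libraries and, where they overlap, may share reads. Gm10754, which overlaps the gene of the cartilage proteoglycan epiphycan, Epyc, rose with it, by 4.61 against 11.05 in P3D8 and 6.24 against 13.42 in P3E3. Dlx4os, antisense to the homeobox gene Dlx4, rose by 1.57 and 4.35, and Dlx4 by 3.20 and 5.17. Airn and Igf2r were an overlapping pair that moved in opposite directions in both clones.

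**Figure D4:**
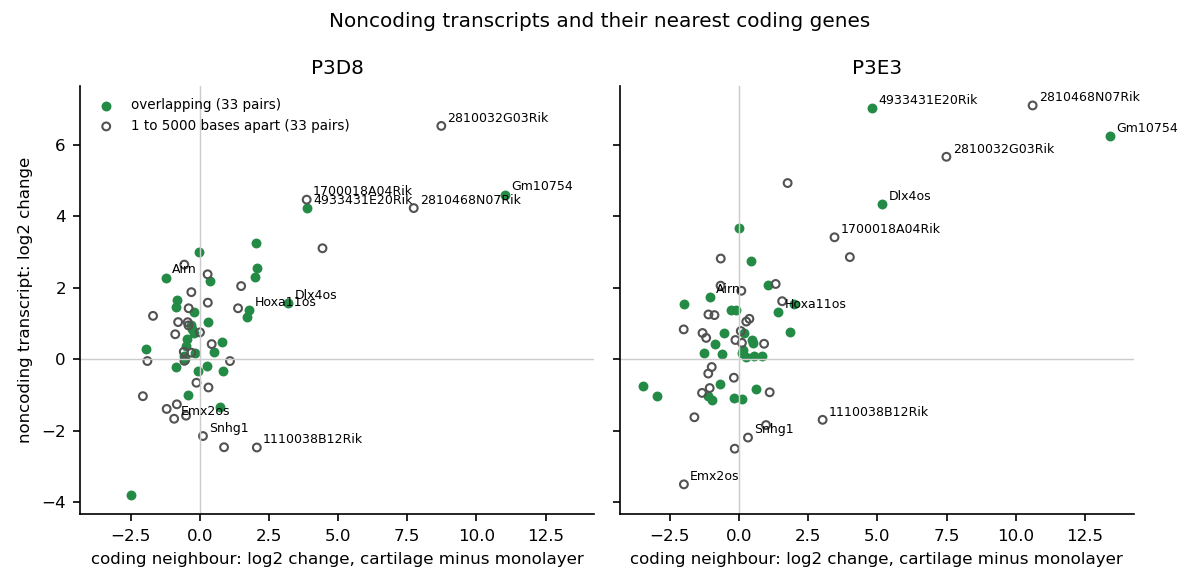
Each point is 1 noncoding transcript and its nearest tested coding gene, with the log2 change from monolayer to cartilage of the coding gene on the horizontal and of the noncoding transcript on the vertical axis, in P3D8 (left) and P3E3 (right); filled points overlap and open points lie up to 5000 bases apart. The 33 overlapping pairs had a Pearson r of 0.64 in P3D8 and 0.74 in P3E3.

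In both clones 153 members rose (45.1%) and 52 fell (15.3%), where 31.1% and 29.1% of all tested transcripts did. A further 26 rose and 14 fell in P3D8 and did not pass the test in P3E3, 26 rose and 22 fell in P3E3 and did not pass it in P3D8, and 33 passed it in neither clone (9.73%, against 9.11% of all tested transcripts). Rises called in 1 clone alone made up 15.3% of members and 11.7% of all tested transcripts. Falls called in 1 clone alone made up 10.6% and 14.1%. Opposite calls were made for 13 members (3.83%), against 4.88% of all tested transcripts. Those that rose in P3D8 and fell in P3E3 were 1810026B05Rik, D930016D06Rik, Magef1, 5930403L14Rik, Fendrr and Ttc39aos1. Those that fell in P3D8 and rose in P3E3 were Gas5, Snhg8, B230217O12Rik, Snhg4, Gm15663, Gm12070 and Rps15a-ps6. Without the third P3E3 cartilage library 14 members had opposite calls, with Fendrr lost and Gm16386 and 4632404H12Rik gained. The difference between the changes was tested directly, and 50 members (14.7%) had the higher and 67 (19.8%) the lower change in P3D8. Both shares were under those of all tested transcripts, 18.7% and 27.8%. Differences of at least 1.5 were called for 24 members with the higher and 30 with the lower change in P3D8, against 5.29% and 8.12% of all tested transcripts.

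Gm6634 had the largest positive difference: it was at 195, 205 and 217 in P3E3 monolayer and 3.06, 2.48 and 1.72 in P3E3 cartilage, but at 125, 82.3 and 109 and 32.1, 22.2 and 36.4 in P3D8. It fell by 5.93 in P3E3 and 1.78 in P3D8, and the falls differed by 4.16 ± 0.33 (adjusted p = 4.03e-07). Gm16576 likewise fell far in P3E3 (-3.25) and little in P3D8 (-0.61). LOC105242579 had the largest negative difference, -3.91 ± 0.37 (adjusted p = 2.08e-06), with 0 to 0.593 in P3E3 monolayer, 41.2 to 56.7 in P3E3 cartilage, and 10.9 to 14.4 and 29.3 to 41.0 in P3D8. Gm2115, which lies 3921 bases from the tyrosine catabolism gene Fah, was at 9.66, 8.89 and 10.4 in P3E3 monolayer and 303, 311 and 356 in cartilage, and at 105, 103 and 90.0 and 710.0, 689 and 502 in P3D8, with a difference of -2.28 ± 0.21 (adjusted p = 1.60e-06). Gm15663, 72 bases from Tmtc2, fell by 0.51 in P3D8 and rose by 2.26 in P3E3.

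The RNA listed as 1810026B05Rik (Chaserr in RefSeq), which in the mouse holds down the chromatin remodeller gene Chd2 that it adjoins, was at 116, 127 and 143 in P3D8 monolayer and 212, 204 and 229 in cartilage, and at 459, 487 and 443 and 259.7, 260.4 and 169.9 in P3E3. It rose by 0.74 ± 0.15 (adjusted p = 4.16e-04) in P3D8 and fell by 1.03 in P3E3 (adjusted p = 1.64e-05). Chd2 changed by -0.22 in P3D8, which was not called, and fell by 1.11 in P3E3. Fendrr, which in the mouse embryo is needed for heart and body wall and lies 1276 bases from Foxf1, was at 27.4, 25.1 and 19.2 in P3D8 monolayer and 36.5, 33.8 and 53.8 in cartilage, and at 9.05, 7.11 and 11.6 and 6.89, 5.79 and 2.57 in P3E3. Its changes were 0.75 (adjusted p = 0.0434) and -0.81 (adjusted p = 0.0303), and the P3E3 call was lost without the third P3E3 cartilage library (-0.46, adjusted p = 0.154). P3D8 cartilage held more of it than P3E3 cartilage by 2.85 ± 0.32 (adjusted p = 5.84e-06), and more Foxf1 by 1.68 (adjusted p = 3.39e-08).

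**Figure D5:**
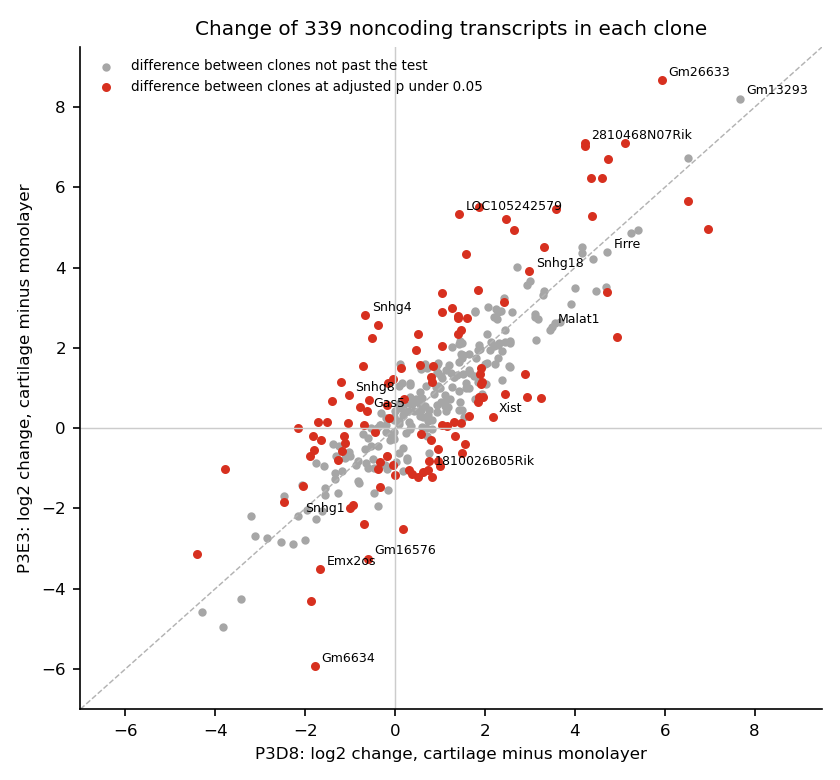
Each point is 1 of the 339 transcripts, with its log2 change from monolayer to cartilage in P3D8 on the horizontal and in P3E3 on the vertical axis; red points differ between the clones (limma, adjusted p under 0.05) and grey points do not pass that test. Most points lie near the diagonal, Gm6634 lies far below it (-1.78 and -5.93) and LOC105242579 far above it (1.43 and 5.35).

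The clones also differed within each state, and the 2 comparisons of clones share no library. In monolayer 74 members (21.8%) were higher and 75 (22.1%) lower in P3D8 than in P3E3, where the test called 26.7% of all tested transcripts higher and 23.4% lower. In cartilage 70 (20.6%) were higher and 71 (20.9%) lower in P3D8, against 22.0% and 28.3%. Differences of at least 1.5 were called higher in P3D8 for 26 and lower for 6 members in monolayer (6.68% and 1.88% of all tested transcripts) and for 17 and 20 in cartilage (4.99% and 3.54%). In both states 26 members were higher and 24 lower in P3D8. A further 10 were higher in P3D8 monolayer and lower in P3D8 cartilage, Snhg4 among them, and 11 were lower in monolayer and higher in cartilage, Xist, Emx2os and Gm6634 among them. Shares of all tested transcripts with these joint patterns were not worked out, so these counts cannot be read as particular to the members.

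Bc1, a short RNA made by RNA polymerase III and known from neurons, had the largest difference between the clones in monolayer among members lower in P3D8. It was at 2.61, 0.643 and 9.31 in P3D8 monolayer and 7.46, 6.59 and 20.6 in P3D8 cartilage, and at 94.1, 59.9 and 67.6 and 88.1, 113 and 97.8 in P3E3. P3D8 was lower in every library of either state, by -4.22 ± 0.53 (adjusted p = 1.68e-05) in monolayer and -3.17 ± 0.53 (adjusted p = 2.35e-04) in cartilage. Bc1 is not a polymerase II transcript and holds an internal A-rich stretch, so a library of polyadenylated RNA may not read its full level. On the other side, 4930447F24Rik was higher in P3D8 monolayer by 4.22, D5Ertd605e by 3.82, LOC105242579 by 3.55, 2610203C22Rik by 3.36 and Gm2115 by 3.24. A230028O05Rik was higher in P3D8 in both states, by 3.23 and 2.26.

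In cartilage, BC064078 was higher in P3D8 by 3.67 ± 0.30 (adjusted p = 3.07e-07), Gdap10 by 2.69 and 2810433D01Rik by 2.60. Dlx4os was the transcript lowest in P3D8 cartilage relative to P3E3: it was at 0, 0 and 0 in P3D8 monolayer, 1.49, 0.824 and 4.75 in P3D8 cartilage, 0.604, 2.37 and 0.609 in P3E3 monolayer and 39.8, 38.0 and 45.5 in P3E3 cartilage. Its difference in cartilage was -3.82 ± 0.41 (adjusted p = 4.42e-06), and that of Dlx4 was -1.43 (adjusted p = 5.03e-04). Kcnmb4os2 was lower in P3D8 cartilage by 2.14 on the log2 scale. In monolayer BC025920 was lower in P3D8 by 2.34, Magef1 by 1.88 and 1810026B05Rik by 1.84.

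Transcribed pseudogenes were among the most abundant members. Their reads may come in part from the parent gene, which has nearly the same sequence, so their values are uncertain. Gm15772, the member with the highest mean, changed by -0.70 ± 0.09 (adjusted p = 3.17e-06) in P3D8 and 0.08 ± 0.09 (adjusted p = 0.387) in P3E3. Rpl14-ps1, named for a ribosomal protein gene, was at 2575, 2962 and 2586 in P3D8 monolayer and 958, 896 and 998 in cartilage, and at 2730.2, 2430.3 and 2523 and 2875, 2913 and 2738 in P3E3. It fell by 1.51 ± 0.08 (adjusted p = 2.21e-10) in P3D8, was not called in P3E3 (0.15 ± 0.08), and its changes differed by -1.66 ± 0.11 (adjusted p = 6.10e-08). Rps15a-ps6 fell by 1.40 in P3D8 and rose by 0.69 in P3E3. Gpr137b-ps fell by 1.83 in P3D8 and changed by -0.20 in P3E3, which was not called, and the changes differed by -1.63 ± 0.14 (adjusted p = 1.13e-06). Pisd-ps3 rose in both, by 1.45 and 2.16, and its cartilage level differed between the clones by 0.84, or by 0.53 without the third P3E3 cartilage library.

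Promoter windows of 300 bases, from 250 before to 50 after the start in RefSeq on GRCm38.p6, were found for 219 members. They were rich in G and C, with a median of 61% against 52.8% over 27025 windows of the table. The motif GGCGCC, the same on both strands, was found in 55 member windows (25.1%) and in 13.4% of all windows. It was in 36 of 117 windows of members that rose in both clones (30.8%) and in 4 of 30 of those that fell in both (13.3%), sets whose median GC was 61.7% and 57.3%. TATAAA was found, on either strand, in 5 of 11 host windows, against 12.3% of member windows and 15.7% of all windows. CACGTG (9.13% of member and 8.09% of all windows), TGACGTCA (3.20% and 2.03%) and CCAAT or its reverse complement (38.8% and 41.1%) were searched as well, and TGACGTCA was in 2 of the 11 host windows. A match is a description of letters, and base composition moves with it.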

How the data were processed

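Polyadenylated RNA of 12 libraries was sequenced as paired reads. The deposited values were a signal: the authors aligned reads to mm10 with HISAT2, counted them per RefSeq transcript with HTSeq and scaled each library's counts by its DESeq2 size factor, set over all datasets of their study together. Versions and the strand setting are not given in the sources used here. A second deposited table held the authors' comparison of the cartilage groups and their means of groups, and was not used.

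Each value was a whole multiple of its library's smallest value (100% within 0.01 read), which gave back the whole reads. All transcripts whose mean reached 10 were fitted with limma 3.58.1 in R 4.3.3 on log2(normalized count + 1), with 4 groups taken from the titles and all 12 libraries in 1 fit. The contrasts given above were drawn, and p-values were adjusted over 5333 transcripts by the method of Benjamini and Hochberg. A count of 0 was set to 3 reads per library for lower bounds of folds, which cover counting error only. Simulated data for the P3D8 comparison held 5333 transcripts, of which 5133 were unchanged. In them limma called 74% of log2 changes of 1, 95% of those of 2 and 0.117% of unchanged transcripts. Far more were called in the data, 1999 higher and 2070 lower, so these rates are not those of the calls above. Alternatives were pseudocounts of 0.5 and 5, a minimum mean of 20 or none, library-total and TMM scaling, edgeR 4.0.16 and DESeq2 1.42.0 on the recovered reads, the replicate number as a block, groups by the cell line entry, leaving out the 4 libraries in conflict, the 6 cartilage libraries alone and leaving out each library in turn.

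Named members were, per pairwise comparison and direction, the 6 largest changes among those called without overlap, the 12 with the highest mean, the members of 4 gene lists (snoRNA hosts, long nuclear RNAs, imprinted, limb and Hox), the 8 with the smallest adjusted p for the difference between the changes, those beside the threshold, and their coding neighbours. The members, the lists and this rule were chosen with earlier results of these data known. Pisd-ps3 was named as 1 of the 12 most abundant. Lyz2, Fbl, Nudt21 and Rps15a-ps6 belong to lists or to the opposite calls. Members given for opposite calls or for a low level in 1 library, and Gm12070, Gm10754 and the members at 0 in monolayer outside the rule, were chosen after their values were seen. Positions are on GRCm38.p6, the RefSeq patch release of mm10.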

Additional observations from a re-analysis of the deposited data

Results flagged for a closer look

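For 48 members described here the change from monolayer to cartilage differed between P3D8 and P3E3 by the interaction term of the limma fit (adjusted p under 0.05), given on the log2 scale as P3D8 minus P3E3. In 31 the change was lower in P3D8. Differences beyond -2 were those of LOC105242579 (-3.91), D5Ertd605e (-3.64), Snhg4 (-3.48), 2810468N07Rik (-2.87), 4933431E20Rik (-2.80), Dlx4os (-2.78), Gm15663 (-2.78), 4930447F24Rik (-2.77), Kcnmb4os2 (-2.75), Gm26633 (-2.74), Gm12070 (-2.36), Gm2115 (-2.28), 2610203C22Rik (-2.26), Rps15a-ps6 (-2.08) and AW112010 (-2.01). The others were Snhg8 (-1.87), Rpl14-ps1 (-1.66), Gm10754 (-1.63), Gpr137b-ps (-1.63), Trp53cor1 (-1.38), B230217O12Rik (-1.33), Ptgs2os2 (-1.27), Snhg12 (-1.19), Gas5 (-1.03), Snhg18 (-0.93), Gm15772 (-0.78), 2410006H16Rik (-0.62), Snhg6 (-0.60), Snhg5 (-0.47), 2610001J05Rik (-0.39) and Norad, listed as 2900097C17Rik (-0.31). In 17 the change was higher in P3D8: Gm6634 (4.16), BC064078 (2.68), Gm16576 (2.64), Gdap10 (2.49), D730005E14Rik (2.43), BC025920 (2.16), Ttc39aos1 (2.04), A830019L24Rik (1.99), Magef1 (1.94), Xist (1.88), Emx2os (1.84), D930016D06Rik (1.79), 1810026B05Rik (1.77), 5930403L14Rik (1.71), Fendrr (1.56), 2810032G03Rik (0.86) and Peg13 (0.42).

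In fits that left out 1 library, 40 of the 48 kept the call each time and 0 changed sign. The call was lost in 11 of 12 such fits for 2810032G03Rik (0.74 to 0.93), in 9 for Ptgs2os2 (-1.37 to -0.85), in 8 for 2410006H16Rik (-0.64 to -0.49), 2900097C17Rik (-0.34 to -0.22), Peg13 (0.29 to 0.43), Snhg6 (-0.65 to -0.47) and Trp53cor1 (-1.38 to -1.09), and in 6 for Snhg5 (-0.47 to -0.35), with an adjusted p of up to 0.123. Without the third P3E3 cartilage library, differences of -1.60 for Kcnq1ot1 (adjusted p = 0.0122), -1.53 for Dancr (adjusted p = 0.0123), -1.02 for Pisd-ps3 (adjusted p = 3.34e-04) and -0.82 for Snhg3 (adjusted p = 0.0399) were called that were not called with it.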

How the results depend on the processing

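Counts of members called kept within 1.5 times of their values under the pseudocounts, TMM scaling, edgeR, DESeq2 and no minimum mean, and changed most with the grouping. Grouped by the cell line entry, 48 members were lower in P3D8 cartilage and 48 in P3E3 cartilage, and the difference between the changes and both comparisons of clones gave 0 higher and 0 lower. Without the 4 libraries in conflict, 32 members had the higher change in P3D8, 46 were lower in P3D8 monolayer than in P3E3 monolayer, and 46 were higher in P3D8 cartilage than in P3E3 cartilage. With the library total 121 were lower in P3E3 cartilage and 80 had the higher change in P3D8. With a minimum mean of 20, which tested fewer members, 120 were higher in P3E3 cartilage. Calls that also asked for a log2 change of at least 1.5 were 108 higher and 33 lower in P3D8, 111 and 29 in P3E3, 24 and 30 for the difference, 26 and 6 between the clones in monolayer, and 17 and 20 in cartilage. The cause of these shifts was not tested.

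Leaving out each library in turn gave 178 to 187 members higher and 66 to 76 lower in P3D8, 171 to 186 and 72 to 83 in P3E3, 40 to 54 and 55 to 73 for the difference, 61 to 75 and 60 to 81 in monolayer, and 56 to 72 and 61 to 73 in cartilage. Of 234 named values, 176 were called, 23 lost the call in at least 1 such fit, and 0 changed sign. Values that changed sign elsewhere were Gas5 in P3E3, -0.19 with the library total and -0.0438 by the cell line entry, and 2610001J05Rik in P3E3, -0.35 with the library total. By the cell line entry the difference was 0.32 for 2410006H16Rik, 0.10 for Snhg12, -0.11 for Peg13, 0.0304 for Snhg6 and 0.0617 for Trp53cor1, and the value was 0.0653 for Peg13 between monolayers, 0.0211 for Snhg15 between cartilage groups and 0.48 for Snhg4 in P3D8.

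Deviations from the group means had correlations of -0.31 to 0.25 between samples of the same number (3 of 18 over 0.1). Between different numbers they were -0.32 to 0.29. Deviations from a mean of 3 libraries are tied to each other, so this check cannot exclude a pairing by number. With the replicate number as a block, 186 members were higher and 73 lower in P3D8, 183 and 80 in P3E3, 45 and 60 for the difference. Limits: 3 libraries a group, 1 founder cell a clone, counts near 10 that rest on few reads, and no strand for overlapping genes.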
